A study of Mus musculus with 3 samples.

Results

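The genes described here are 10 parts of the cell's response to foreign RNA, chosen by symbol: Ifnb1, which encodes interferon beta, the RNA sensor genes Ifih1, Ddx58 and Dhx58, the adaptor gene Mavs, and the interferon-stimulated genes Ifit1, Ifit2, Ifit3, Rsad2 and Cmpk2. All 10 symbols were found among the 55536 annotated genes, of which 22028 are protein-coding. They were measured in RNA bound to chromatin, a fraction rich in transcripts that are still being made or spliced. The RNA came from bone-marrow-derived macrophages of C57BL/6J mice, which are primary phagocytes grown from marrow. The cells had been stimulated for 30 min with lipid A at 100 ng/ml. Lipid A is the membrane anchor of endotoxin and is what TLR4 recognises. All 3 libraries had this same treatment, and they were numbered as biological replicates of 1 donor record, with age and sex not collected. Whether they came from separate mice or cultures is not given, so spreads and p-values describe these libraries. The starting RNA was 1 µg for library 1, 250 ng for library 2 and 500 ng for library 3, and this amount cannot be told apart from other differences between the libraries. No unstimulated library was analysed here, so the values are levels and say nothing on induction.

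The labelled cell type was checked against markers. All 9 macrophage genes were detected, led by Csf1r, Cd14 and Lyz2 at 202, 183 and 136 TPM, a measure of transcript abundance that is corrected for length and adds up to the same total in each library. The markers of other cells depended on which of the 2 deposited quantifications was read, and values are from the first wherever the second is not named. In the first, none of the 6 T and natural killer cell, 5 B cell and 6 neutrophil markers reached a mean of 10 expected counts, the minimum for detection. In the second, Cd3d had 345, 642 and 701 estimated counts, and 2, 1 and 1 markers of these lists passed that minimum. Besides Cd3d, those that passed were Cd3g with 30.0, 49.7 and 52.5, Ms4a1 with 57.3, 60.8 and 49.8, and Ngp with 7, 11 and 23. Cd79b was at 0 in both, and Cd3e had 0 in each library of the first and 1, 1 and 2 in the second. Of 6 markers of plasmacytoid dendritic cells, which are strong interferon producers, only Ccr9 was detected in the first, with 184, 110 and 258 expected counts in libraries 1 to 3, while Siglech had 3, 4 and 4. Siglech had 30.8, 42.3 and 51.6 in the second and passed there. Zbtb46 and Clec9a were the detected ones of 5 conventional dendritic cell markers in the first, and 4 of the 5 passed in the second. The summed expected counts of the 6 stromal and endothelial markers were 44, 104 and 96, and in the second quantification 432, 620 and 797. In bulk RNA, fewer cells of a type and less RNA per cell cannot be told apart. Annotated genes took 16301150, 17033725 and 16205704 expected counts in libraries 1 to 3, so 3 counts, the limit that a count of 0 allows, equal 0.176 to 0.185 CPM, the count scaled to a common library total.

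The helicases RIG-I (Ddx58) and MDA5 (Ifih1) bind viral RNA in the cytosol, and LGP2 (Dhx58), which lacks their signalling domains, modulates them. RIG-I and MDA5 pass the signal to MAVS on the mitochondrial surface, from where TBK1 and IKK kinases activate the transcription factors IRF3 and NF-kB, which together switch on Ifnb1. Lipid A reaches the same kinases through TLR4 and the adaptor TRIF, without MAVS. Secreted interferon then acts through its receptor on transcription factors that bind interferon-stimulated response elements near genes such as the Ifit genes, Rsad2 and Cmpk2. IRF3 can also act on some of these elements directly.

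Promoter sequences from RefSeq on GRCm38.p6, the assembly also known as mm10, were at hand for 9 of the 10 genes and for 3 further Ifit copies, each from 250 bases before to 50 bases after a start. They are printed for the cytokine gene, for the 3 interferon-stimulated genes with the searched element upstream of the start, and for the copy Ifit3b, because the spacing and the identity of these windows can be seen in the letters. The element was searched on both strands as GAAANNGAAA, the core of an interferon-stimulated response element, and the NF-kB site as GGGANNTTCC. The first occurs in 3.44% of all 32851 promoter windows of 300 bases and the second in 1.47%. The printed windows are all upstream of the RefSeq start, 5′ to 3′ on the gene's strand, with capitals on the NF-kB match in Ifnb1 and on the response element matches in the others. They lie at chr4:88522845-88522964 on the minus strand for Ifnb1, chr19:34583359-34583478 on the plus strand for Ifit3, chr19:34607755-34607874 on the plus strand for Ifit3b, chr19:34640744-34640838 on the plus strand for Ifit1, and chr12:26456503-26456622 on the minus strand for Rsad2.
Ifnb1: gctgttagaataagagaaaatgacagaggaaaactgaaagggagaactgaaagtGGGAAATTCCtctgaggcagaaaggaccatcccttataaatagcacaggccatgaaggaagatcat
Ifit3: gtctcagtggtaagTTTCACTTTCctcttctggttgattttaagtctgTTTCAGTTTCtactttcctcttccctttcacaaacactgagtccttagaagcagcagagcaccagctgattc
Ifit3b: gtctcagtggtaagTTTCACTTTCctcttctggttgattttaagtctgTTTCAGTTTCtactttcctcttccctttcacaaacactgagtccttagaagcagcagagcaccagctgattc
Ifit1: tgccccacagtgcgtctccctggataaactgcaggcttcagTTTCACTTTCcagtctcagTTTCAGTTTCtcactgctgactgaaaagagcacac
Rsad2: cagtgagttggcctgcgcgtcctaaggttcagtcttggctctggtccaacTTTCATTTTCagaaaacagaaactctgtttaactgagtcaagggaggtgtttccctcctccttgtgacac

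In Ifnb1 the NF-kB match starts 116 bases before the RefSeq start, and a TATAAA follows 82 bases before it. The response element motif was absent from that window in the letters searched. Ifit3 and Ifit1 each hold 2 response element matches, 156 and 122 bases before the start in Ifit3 and 104 and 85 bases before it in Ifit1. Of all promoter windows, 0.225% hold 2 or more. Rsad2 has 1 match, 120 bases before the start. Ifih1 and Ddx58 have 1 match each just after the start, at 32 and 2 bases downstream. In all, 5 of the 9 genes with a window had a response element match. Ifit2, Mavs, Cmpk2 and Ifnb1 had none, and Ifit2 had an NF-kB match 247 bases before the more upstream of its RefSeq starts. A match describes letters only, and binding was not measured. The printed windows of Ifit3 and its copy Ifit3b are identical over all 120 bases.

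Most of the 10 genes were well covered. A mean of at least 10 expected counts was reached by 9 of the 10, against 49.9% of all protein-coding genes, and the exception was Ifnb1. With a minimum of 5 Ifnb1 passed too, at a mean of exactly 5 that rests mostly on library 1. The median of the 10 genes was 3.87 ± 0.52 (SD, n = 3) in log2(TPM + 0.1), with 3.87, 3.35 and 4.39 in libraries 1 to 3. By mean TPM, 7 of the 10 lay above 4.98, the median of the 10983 detected protein-coding genes. Ifit1, Mavs and Ifnb1 lay below it.

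**Figure D1:**
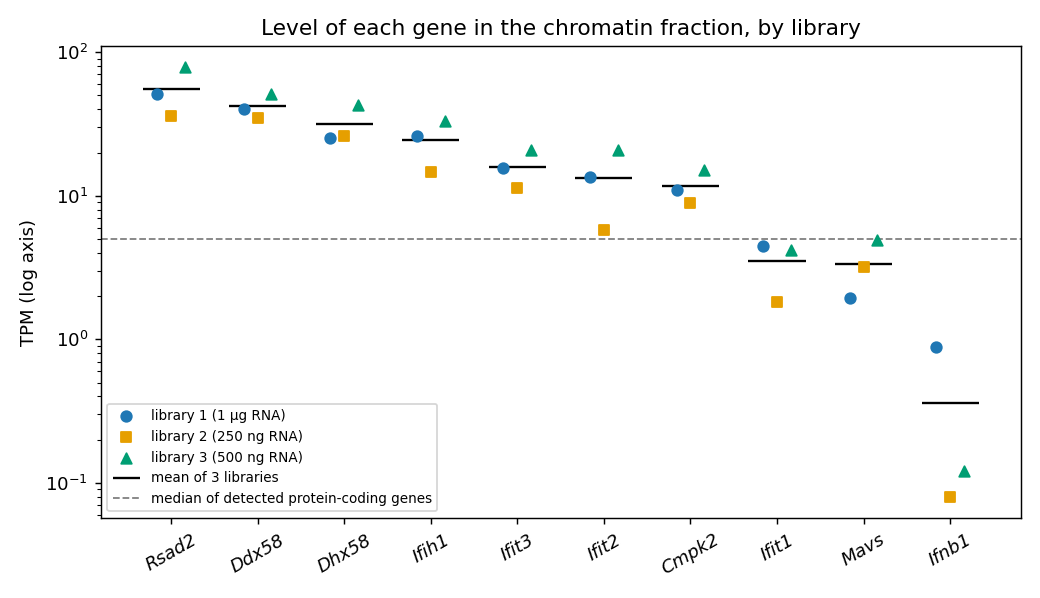
TPM of each of the 10 genes on a log axis, with 1 symbol per library, a bar at the mean of the 3 libraries and a dashed line at the median of detected protein-coding genes (4.98 TPM). Genes run from Rsad2 at 55.1 TPM to Ifnb1 at 0.36, and library 1 of Ifnb1, at 0.88, is above its other libraries, at 0.08 and 0.12.

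Ifnb1 (ENSMUSG00000048806.4, chromosome 4, 88522025 to 88522774, minus strand) is a single-exon gene of 750 bases, so none of its reads could be intronic. It had 13, 1 and 1 expected counts in libraries 1 to 3. As CPM these are 0.797 with an exact Poisson 95% interval of 0.425 to 1.36, 0.0587 with 0.00149 to 0.327, and 0.0617 with 0.00156 to 0.344, intervals that cover counting error only. The interval of library 1 did not overlap those of the others, and libraries 2 and 3 were under the limit that a count of 0 allows. In TPM the gene had 0.88, 0.08 and 0.12, and the mean of 0.36 ± 0.45 (SD, n = 3) falls to 0.10 without library 1. The authors' own credible bounds for TPM were 0.467 to 1.40, 0.00327 to 0.359 and 0.00555 to 0.533, and those of libraries 1 and 3 overlap. The second deposited quantification gave 15, 1 and 1 estimated counts. Interferon beta transcripts were thus near the floor in libraries 2 and 3 and low in library 1.

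Tnf, an NF-kB target of early endotoxin response, was the reference for a strongly transcribed cytokine gene. It had 236, 165 and 421 TPM. Ifnb1 minus Tnf was -7.91, -9.84 and -10.90 in log2(TPM + 0.1), a mean difference of -9.55 ± 1.51 (SD, n = 3). The direction was the same in 3 of 3 libraries (exact two-sided sign-flip permutation p = 0.25, the smallest that 3 libraries allow, and 0.25 after Benjamini-Hochberg adjustment over 4 such contrasts). Because the pseudocount sets how low a nearly absent gene can go, the size of this difference is not a fold change. Of the other 19 interferon genes examined, 13 had no expected count in any library. Only Ifnk, interferon kappa, was detected in the first quantification, with 9, 10 and 18 expected counts, while Ifna4 and Ifna6 had a single count in 1 library each. The second quantification also passed Ifna16, with 37.1, 72.9 and 65.8 estimated counts against 0, 1 and 0 expected counts in the first. The gene nearest to Ifnb1 on its right, Ifna15, was at 0 throughout, and Hacd4 on its left had 8.87 ± 5.38 TPM.

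The sensor genes were among the most abundant of the 10. Ddx58 (ENSMUSG00000040296.15, chromosome 4, 40203773 to 40239828, minus strand) had 40.4, 34.9 and 51.5 TPM, a mean of 42.2 ± 8.45 (SD, n = 3), above 95.6% of protein-coding genes. Ifih1 (ENSMUSG00000026896.14, chromosome 2, 62595798 to 62646255, minus strand) had 26.1, 14.6 and 33.1 TPM, a mean of 24.6 ± 9.34. Dhx58 (ENSMUSG00000017830.15, chromosome 11, 100694884 to 100704271, minus strand) had 25.3, 26.2 and 43.1 TPM, a mean of 31.5 ± 10.1. Library 3 was the highest for all 3 sensors in TPM, and the libraries of Ifih1 and Dhx58 overlapped. Dhx58 shares 2.64 kb with the antisense gene Dhx58os, which had 18.1, 26.0 and 29.1 expected counts. In the second quantification Dhx58os had 150, 124 and 170 estimated counts. The strand setting of the counting is not given, so the split between these genes is uncertain.

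The sensor genes were above their neighbours on the chromosome. Ifih1 lies between Fap, 21.7 kb to its left at 1.04 ± 0.18 TPM, and Gca, 18.0 kb to its right at 2.24 ± 0.82 TPM. Ddx58 lies between Aco1 at 11.5 ± 2.87 TPM and Topors at 3.45 ± 1.87. Next to Dhx58, the acetyltransferase gene Kat2a lies only 0.474 kb away and had 11.4 ± 2.17 TPM, while Zfp385c on the other side was at 0.13 ± 0.067 TPM, or 0.92 in the second quantification. In every library each sensor gene was above both of its nearest protein-coding neighbours.

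Mavs (ENSMUSG00000037523.13, chromosome 2, 131234063 to 131248025, plus strand), the adaptor below RIG-I and MDA5, was far less abundant. It had 1.94, 3.18 and 4.94 TPM from 139, 208 and 216 expected counts, a mean of 3.35 ± 1.51 TPM (SD, n = 3). All its libraries were below all libraries of each sensor gene. Its neighbours Ap5s1 and Pank2 had 3.78 ± 4.69 and 6.16 ± 3.57 TPM, and Pank2 had 20.8 ± 8.96 in the second quantification.

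Genes that act with these proteins were widely detected. The share detected over all protein-coding genes was 49.9%. Of 18 regulators and partners of the sensors and MAVS, 17 were detected. Trim25, which encodes a ubiquitin ligase that acts on RIG-I, led with 70.9, 158 and 171 TPM, followed by Ddx3x at 75.2 ± 43.2 and Pcbp2 at 63.9 ± 16.6. Rnf125, a ligase that limits RIG-I and MAVS, was the undetected one, with 0, 1 and 7 expected counts. All 15 genes of the branch below MAVS were detected, led by the kinase genes Ikbke at 313 ± 16.3 TPM and Tbk1 at 93.8 ± 15.7 and by Irf3 at 88.4 ± 25.7. The interferon receptor and its factors were detected in full, 7 of 7, with Stat2 at 77.2 ± 16.9 and Ifnar1 at 40.6 ± 14.2 TPM. Stat2 and Ifnar1 were each above Mavs in every library. Of 9 other genes for RNA recognition, all were detected, led by Oas2 at 80.5 ± 20.3, Adar at 49.0 ± 5.45 and Eif2ak2 at 47.5 ± 14.6 TPM.

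The Ifit family includes proteins that bind viral RNA, and Ifit1 recognises 5′ ends that lack host methylation. Ifit3 (ENSMUSG00000074896.3, chromosome 19, 34583531 to 34588731, plus strand) had 15.7, 11.3 and 20.9 TPM, a mean of 16.0 ± 4.79 (SD, n = 3). Ifit2 (ENSMUSG00000045932.12, chromosome 19, 34550694 to 34576419, plus strand) had 13.5, 5.75 and 20.9 TPM, a mean of 13.4 ± 7.60. Ifit1 (ENSMUSG00000034459.8, chromosome 19, 34640871 to 34650009, plus strand) had 4.47, 1.82 and 4.22 TPM, a mean of 3.50 ± 1.46. Library 2 was the lowest for each of the 3 genes. The libraries of Ifit2 and Ifit3 overlapped, and all libraries of Ifit1 were below all of both.

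The Ifit genes lie in 1 cluster of 99.3 kb, which also holds Ifit1bl1, Ifit3b and Ifit1bl2. These copies were low. Ifit3b had 40.0, 11.5 and 13.5 expected counts (0.52 ± 0.28 TPM), Ifit1bl1 6, 3 and 2, and Ifit1bl2 3.02, 1.01 and 6.03. The gene on the left of the cluster, Lipa, a lysosomal lipase gene, had 25.8 ± 7.24 TPM, and the one on the right, Slc16a12, had 1, 0 and 0 expected counts. All libraries of Ifit1, Ifit2 and Ifit3 were thus above all libraries of the copies between them. Ifit1bl2 and Ifit1 start only 127 bases apart on opposite strands, and 2 response element matches printed above lie between them, 70 and 51 bases before the RefSeq start of Ifit1bl2.

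**Figure D2:**
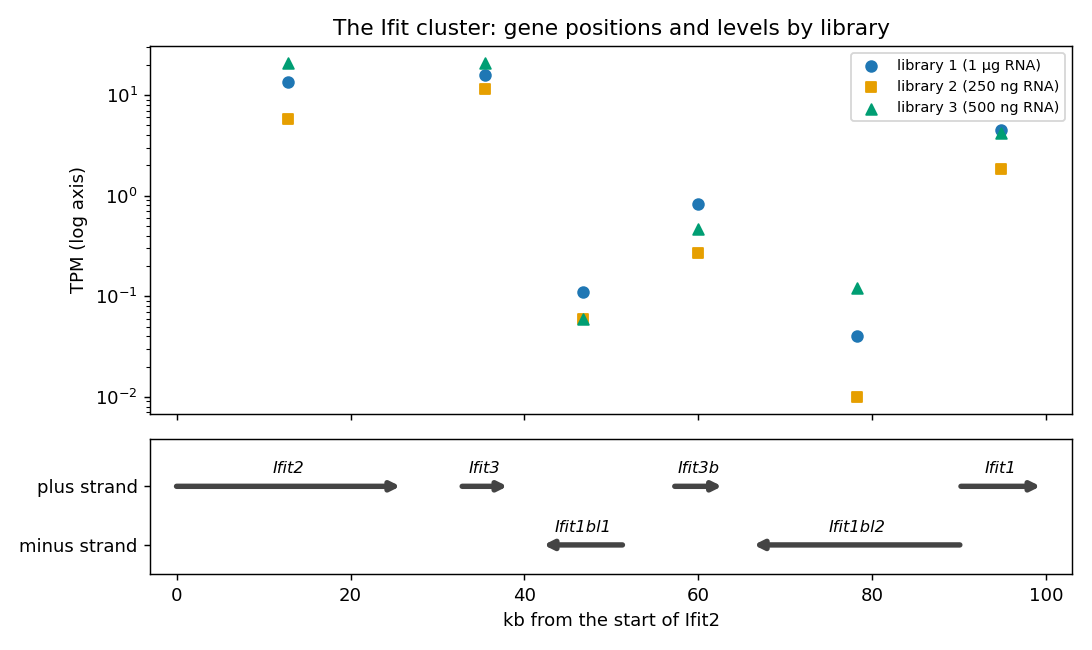
Upper panel, TPM of the 6 protein-coding genes of the Ifit cluster on a log axis, 1 symbol per library, at the gene's midpoint. Lower panel, each gene as an arrow in its direction of transcription, in kb from the start of Ifit2. Ifit2, Ifit3 and Ifit1 lie between 1.82 and 20.9 TPM, and the copies between them at or under 0.83.

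Ifit3 and Ifit3b are near-identical copies, so their reads can be split only where the sequences differ. Their coding sequences have the same length of 1212 bases and differ at 11 positions, an identity of 99.1%. Of the 50-base windows of the Ifit3 transcript, 51.2% occur letter for letter in that of Ifit3b, and of the 100-base windows 31.7%. The stretch of 120 coding bases with the most differences, coding bases 169 to 288, is printed to show how few letters separate them, with differing bases in capitals. It lies at chr19:34587224-34587343 in Ifit3 and chr19:34611594-34611713 in Ifit3b, plus strand, from GENCODE M21 transcripts on GRCm38.
Ifit3: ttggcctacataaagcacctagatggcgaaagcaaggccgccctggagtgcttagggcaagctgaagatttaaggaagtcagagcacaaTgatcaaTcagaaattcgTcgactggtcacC
Ifit3b: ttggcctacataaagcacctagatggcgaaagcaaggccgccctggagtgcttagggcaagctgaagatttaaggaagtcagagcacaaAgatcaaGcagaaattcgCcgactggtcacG

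In this stretch 4 of 120 bases differ. The first quantification gave Ifit3 648, 419 and 510 expected counts against 40.0, 11.5 and 13.5 for Ifit3b. The second gave Ifit3 722, 483 and 612 estimated counts against 64.3, 46.1 and 62.4. Ifit3 was thus above Ifit3b in every library by both quantifications, although the exact split is uncertain. Ifit1 shares 7.06% of its 50-base windows with Ifit1bl2, whose counts were 3.02, 1.01 and 6.03 in the first quantification but 58.1, 43.3 and 64.7 in the second. Of the 50-base windows of Ifit1, none is found in the Ifit2 or Ifit3 transcript, nor any of Ifit2 in that of Ifit3.

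Rsad2 and Cmpk2 are divergent neighbours on chromosome 12 with 12.8 kb between their starts. Rsad2 encodes viperin, an enzyme that makes a chain-terminating nucleotide from CTP, and Cmpk2 encodes a mitochondrial nucleotide kinase that can supply CTP. Rsad2 (ENSMUSG00000020641.16, 26442746 to 26456452, minus strand) had 50.9, 36.1 and 78.3 TPM, a mean of 55.1 ± 21.4 (SD, n = 3). It ranked 701 of the 22028 protein-coding genes. Cmpk2 (ENSMUSG00000020638.8, 26469204 to 26479837, plus strand) had 11.0, 8.95 and 15.0 TPM, a mean of 11.7 ± 3.08. Rsad2 was the higher of the pair in each library, and the difference varied little.

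The Rsad2 minus Cmpk2 difference was 2.20, 2.00 and 2.38 in log2(TPM + 0.1), a mean of 2.19 ± 0.19 (SD, n = 3) or 4.56-fold. Its sign was the same in 3 of 3 libraries (exact two-sided sign-flip permutation p = 0.25). In the second quantification its mean was 1.91. These differences count all transcripts of each gene. The gap was wider over protein-coding transcripts, with 39.7, 30.9 and 65.6 TPM for Rsad2-201 and 4.63, 3.61 and 6.71 for Cmpk2-201. Beyond the pair the nearest protein-coding genes were low. Rnf144a, 27.5 kb from Rsad2, had 7, 3 and 7 expected counts, and Sox11, 854 kb from Cmpk2, had 0 in every library. In the second quantification Rnf144a had 0.17 and Sox11 0.16 TPM on average.

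By role, and counting all transcripts of a gene, the sensor genes lay above the Ifit genes. The median of Ifih1, Ddx58 and Dhx58 minus the median of Ifit1, Ifit2 and Ifit3 was 0.95, 2.17 and 1.04 in log2(TPM + 0.1), a mean of 1.39 ± 0.68 (SD, n = 3). The direction held in 3 of 3 libraries (exact two-sided sign-flip permutation p = 0.25), and library 2, where the Ifit genes were lowest, gave the widest gap. These levels include transcripts that are not protein-coding, which the annotation lists for the sensor genes but not for the Ifit genes. The main protein-coding transcripts had 12.7, 10.9 and 14.5 TPM for Ddx58 and 11.5, 14.2 and 19.2 for Dhx58. The Ifit medians were 13.5, 5.75 and 20.9 TPM, so both lay below in libraries 1 and 3 and above in library 2. In order of mean log2(TPM + 0.1) the genes ran Rsad2, Ddx58, Dhx58, Ifih1, Ifit3, Ifit2, Cmpk2, Ifit1, Mavs and Ifnb1. Of the 9 neighbour pairs in this order, 5 kept their sign in all 3 libraries, each with a mean difference above its SD: Rsad2 over Ddx58 (0.33 ± 0.28), Ddx58 over Dhx58 (0.45 ± 0.21), Ifih1 over Ifit3 (0.59 ± 0.19), Cmpk2 over Ifit1 (1.78 ± 0.48) and Mavs over Ifnb1 (3.25 ± 1.91). Each had an exact permutation p of 0.25, or 0.45 adjusted over the 9 pairs. Over protein-coding transcripts only, Ddx58 was below Dhx58 in libraries 2 and 3, and Ifih1 was below Ifit3 in each library. The rest of these pairs kept their sign there. The other 4 pairs, Dhx58 and Ifih1, Ifit3 and Ifit2, Ifit2 and Cmpk2, and Ifit1 and Mavs, differed by less than their spread. In the second quantification Ddx58 came first and Rsad2 second.

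Between libraries, TPM and CPM gave different orders. TPM was highest in library 3 for 8 of the 10 genes. Genes under 300 bases took 72.9%, 66.3% and 56.7% of TPM in libraries 1 to 3, and the median detected gene sat 0.52 above its own mean in log2(TPM + 0.1) in library 3 and 0.37 below it in library 1. Libraries were therefore compared in log2 CPM, normalised counts with TMM scaling, where the median detected gene sat within 0.00497 of its mean in each library. On that scale library 1 was the highest for 8 of the 9 detected genes, against 30.5% of all 14396 detected genes. Library 2 was the lowest for 6 of the 9, against 34.3%.

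**Figure D3:**
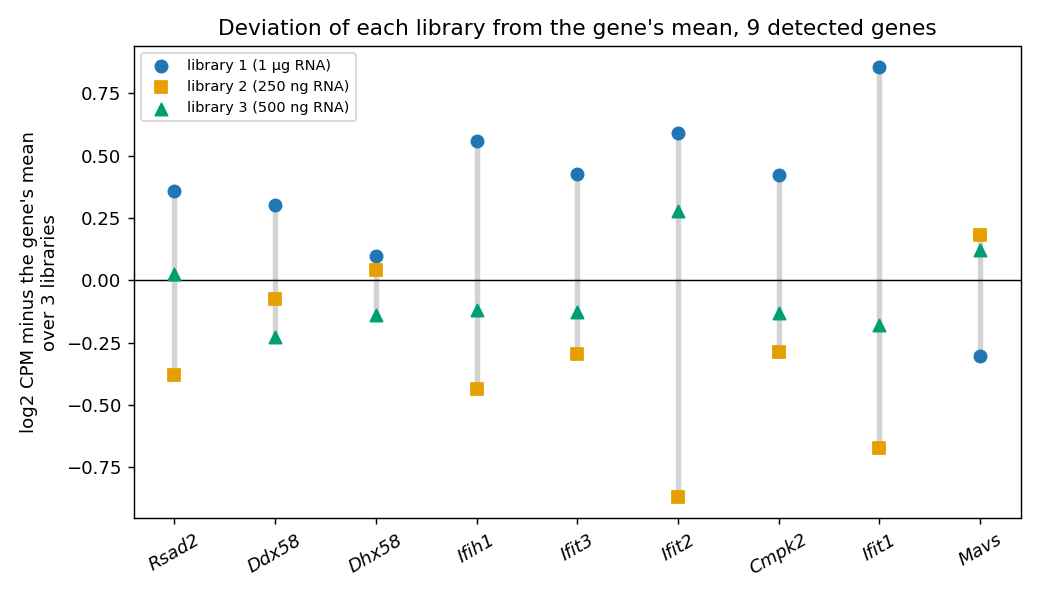
Log2 CPM of each library minus the gene's mean over the 3 libraries, for the 9 detected genes, with a grey bar over the range. Library 1 is on top for every gene except Mavs, where it is lowest, and library 2 is lowest for Rsad2, Ifih1, Cmpk2 and the 3 Ifit genes.

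Of the 9 detected genes, Ifit1 and Ifit2 varied most between libraries. Ifit1 had a log2 CPM of 4.25, 2.72 and 3.22, a 2.88-fold range, and Ifit2 had 6.40, 4.94 and 6.09, a 2.75-fold range. These 2 of the 9 detected genes were over 2-fold apart between libraries, against 18.0% of all detected genes. The count was 1 without library 1 and 1 without library 2. Ifih1 came next, with 7.31, 6.32 and 6.63 and a 1.99-fold range. Ifit3 (1.65-fold), Rsad2 (1.67-fold) and Cmpk2 (1.63-fold) also had library 1 at the top and library 2 at the bottom. Dhx58 was the steadiest, at 5.84, 5.79 and 5.61, a 1.18-fold range, and Ddx58 had a 1.45-fold range. Mavs ran the other way, with 3.18, 3.67 and 3.61. The median range of the 9 genes was 1.65-fold, and that of all detected genes 1.46-fold. With 1 library for each amount of RNA, no test of these differences was made.

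Other interferon-stimulated genes, 20 that are not among the 10, had a similar pattern over the libraries. Of these, 17 were highest in library 1 and 14 lowest in library 2 in log2 CPM, with median deviations of 0.31, -0.31 and -0.05 in libraries 1 to 3. The 9 detected genes had 0.42, -0.30 and -0.13. Isg15, Ifi44, Ifitm3, Isg20 and Bst2 were the 5 of the 20 over 2-fold apart, and Isg15 had 73, 20 and 55 expected counts; these 5 are named because of their values. The 8 NF-kB target genes had it too: 7 were highest in library 1 and 7 lowest in library 2, with median deviations of 0.34, -0.35 and 0.05. The markers of other cells moved between the same libraries, in different directions. Of the 4 detected stromal and endothelial markers, Pecam1 was highest in library 1, with 32, 17 and 18 expected counts. Col3a1 (0, 24 and 18), Col1a2 (3, 25 and 27) and Col1a1 (2, 31 and 31) were lowest there. Ccr9 was lowest in library 2, and the 9 macrophage genes had median deviations of 0.19, 0.12 and -0.18. Whether any of these took part in the differences was not tested.

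All 20 of these other interferon-stimulated genes were detected, from Isg20 at 1.25 TPM to Parp14 at 161 ± 33.4, with Sp100 at 125 ± 20.9 and Oasl2 at 86.4 ± 34.1 next. The median of the 10 genes was above that of the 20 by 0.99, 0.73 and 0.71 in log2(TPM + 0.1), a mean of 0.81 ± 0.15 (SD, n = 3). The sign was the same in 3 of 3 libraries (exact two-sided sign-flip permutation p = 0.25). In the second quantification the mean difference was -0.025, so the direction depends on the quantification. Among early NF-kB targets, Tnfaip3, Il1b and Cxcl2 led with 535 ± 141, 514 ± 74.1 and 470 ± 162 TPM.

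Reads were assigned to annotated transcripts only, so the shares below follow the annotation. Many of these transcripts share exons with the coding one, and introns outside them have no entry. The shares therefore do not measure how much of a gene's RNA carried intron sequence or lacked a coding frame. Ifnb1, Ifit1, Ifit2 and Ifit3 have only protein-coding transcripts in the annotation. For the other 6 genes, the share of the gene's abundance in protein-coding transcripts had a median of 52.1% ± 9.21 (SD, n = 3), with 49.4%, 62.4% and 44.6% in libraries 1 to 3. The second quantification gave 33.8% ± 8.13. Library 2 had the highest protein-coding share of abundance for Ifih1, Ddx58, Dhx58 and Rsad2 in both quantifications. For Mavs and Cmpk2 the share was highest in library 3 in the first. By expected counts Ddx58 had 58.2%, 58.1% and 50.1%, so its library 2 was not the highest there.

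As a share of the gene, retained-intron transcripts were higher in Cmpk2 than in Ifih1, the other gene that has them, in each library of both quantifications. Its protein-coding transcript, Cmpk2-201 with 5 exons, held 42.0%, 40.3% and 44.7% of its abundance. Most of the rest was Cmpk2-204, annotated as retained intron, with 56.3%, 46.3% and 50.5%. In the second quantification it took 22.0%, and Cmpk2-203, a retained-intron transcript of 330 bases with 5.24% in the first, took 53.1%. Cmpk2-204 starts inside intron 1 and holds 897 bases of it, 27.4% of its length. The level assigned to retained-intron transcripts was 6.21, 5.12 and 8.30 TPM for Cmpk2 and 11.7, 4.08 and 17.5 TPM for Ifih1. It was thus higher for Ifih1 in libraries 1 and 3. The Ifih1 protein-coding share was 53.4%, 70.3% and 43.9%, and Ifih1-203, a retained-intron transcript of 3 exons that ends inside intron 3, held 38.3%, 21.7% and 45.5%. Of the 2565 bases of Ifih1-203, 1568 are intronic. Library 2, where Ifih1 had its lowest level, had the smallest retained-intron share.

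Ddx58 had the lowest protein-coding share, 31.3%, 34.1% and 28.2%, and its 8 processed transcripts, which have no coding frame, held the rest. Dhx58 had 45.4%, 54.4% and 44.4% in its single protein-coding transcript, and the 786-base Dhx58-204, with 409 bases in intron 11, held 36.4%, 30.8% and 34.1%. These shares are of abundance per length, which weights short transcripts up. As shares of expected counts, protein-coding transcripts held 55.5% ± 4.64 (SD, n = 3) of Ddx58, 79.4% ± 3.73 of Dhx58, 70.8% ± 9.99 of Ifih1 and 44.6% ± 2.28 of Cmpk2. By counts as by abundance, most of Cmpk2 was assigned outside its coding transcript.

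Rsad2 and Mavs were mostly protein-coding in the first quantification. Rsad2-201 held 78.0%, 85.6% and 83.8% of Rsad2, and the rest was Rsad2-202, a transcript annotated for nonsense-mediated decay, an RNA surveillance pathway, with 435 bases of intron 2. Mavs had 82.9%, 83.5% and 89.3% in protein-coding transcripts. Within these, Mavs-202 held 0%, 13.2% and 36.0%, and Mavs-201 held 82.9%, 70.3% and 53.3%, on 139 to 216 expected counts for the gene. In the second quantification the share of Rsad2-201 was 34.6% ± 7.63, and Rsad2-203, a processed transcript of 430 bases listed at 0 in the first, took 35.8% ± 5.44 there.

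**Figure D4:**
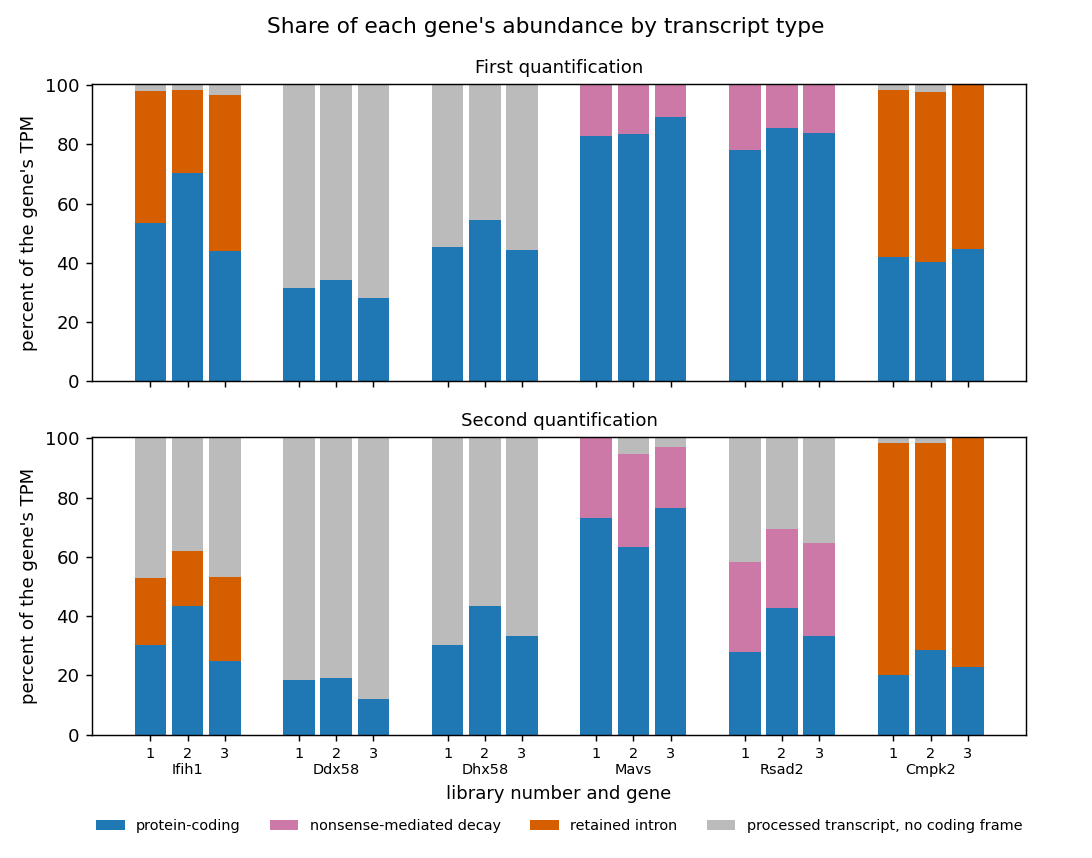
Percent of each gene's TPM by annotated transcript type for the 6 genes with more than 1 type, 1 bar per library, in the first (upper) and second (lower) deposited quantification. The protein-coding share in the first ranges from 28.2% for Ddx58 to 89.3% for Mavs, both in library 3, and it is lower in the second for each of the 6 genes in each library.

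The quantifications also differed in level. The ratio of mean TPM, second over first, was 2.23 for Ddx58, 2.21 for Cmpk2, 2.12 for Ifih1, 1.77 for Rsad2 and 1.37 for Dhx58. It was 0.87 for Ifit3, 0.91 for Ifit2, 1.22 for Ifit1 and 1.03 for Mavs. The median over detected protein-coding genes was 1.41, so Dhx58 lay close to it, and Mavs and the 3 Ifit genes lay below it. Ifih1, for example, had 70.0, 22.1 and 64.6 TPM in the second quantification, where the 439-base Ifih1-204 took 44.0% ± 5.16 of the gene against 1.86%, 1.78% and 3.32% in the first.

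**Figure D5:**
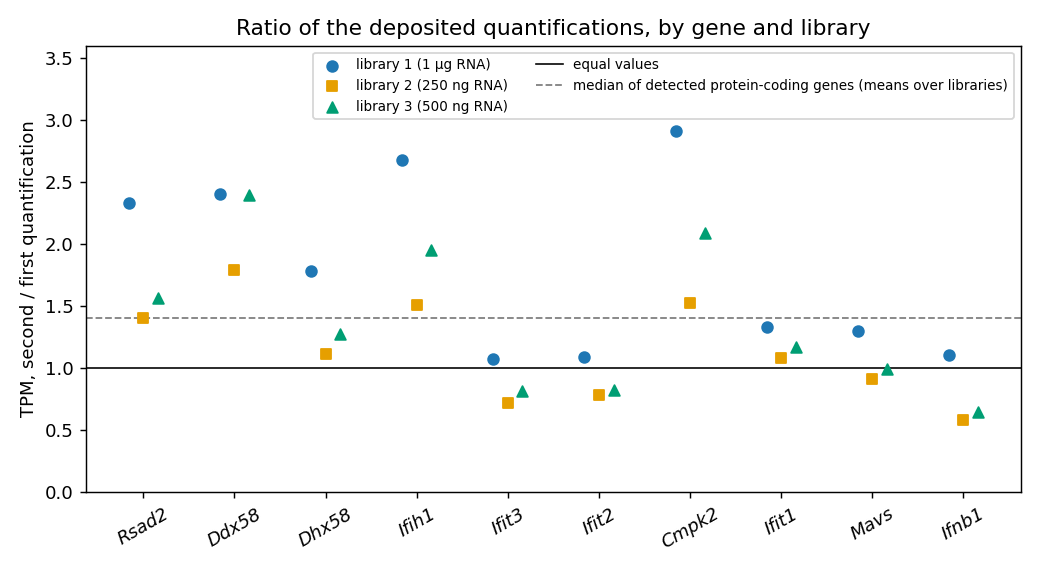
TPM in the second deposited quantification divided by TPM in the first, for each gene and library, with lines at equal values and at the median of detected protein-coding genes (1.41). Ddx58, Cmpk2 and Ifih1 reach 2.41 to 2.91 in library 1. The median line is for means over libraries, and the order of the libraries was not compared with that of other genes.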

How the data were processed

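Chromatin-fraction total RNA was measured in 3 libraries of 1 group. The authors deposited expected counts and TPM per gene and per transcript, with the percent of a gene's abundance per transcript and credible bounds of TPM, and a second quantification with estimated counts and TPM per transcript, per the file headers. Build mm10 and GENCODE M21 are per the deposited notes. Tools and strand setting: not given in the sources used here. Entries that match no annotated gene, 1.03%, 0.245% and 0.218% of expected counts, were left out.

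The genes and lists were chosen with earlier results of these data known. Named were the 10 genes, the 3 Ifit copies, nearest protein-coding neighbours, Tnf, and from each list up to 3 of the most abundant genes by mean TPM and at most 2 of the undetected. Outside this rule, Col1a1 and the genes given for their second-quantification values (Cd3d, Cd3g, Ms4a1, Ngp, Siglech, Ifna16) were named after their values were seen. No similarity of pattern was computed, since there is 1 group of 3 libraries. Detection required 10 or more expected counts on average. Levels used log2(TPM + 0.1). Contrasts within libraries used an exact two-sided sign-flip permutation, which cannot go below 0.25 with 3 libraries. Libraries were compared in log2 CPM with TMM scaling (edgeR 4.0.16 in R 4.3.3, expected counts as deposited, prior count 0.5). The step was checked on simulated data. Alternatives were other pseudocounts, minimums and scalings (DESeq2 1.42.0, on counts rounded to whole numbers), the second quantification, posterior mean TPM and leaving out each replicate. Python 3.11.15, numpy 2.4.6, pandas 2.3.3 and scipy 1.17.1 were used.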

Additional observations from a re-analysis of the deposited data

How the results depend on the processing

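The interferon-stimulated comparison turned with the quantification: the median of the 10 genes minus that of the 20 others was 0.81 in log2(TPM + 0.1) and -0.025 in the second quantification. The cause was not tested. The median share in protein-coding transcripts was 52.1% and became 33.8% in the second quantification. The median level of the 10 genes was 3.87 and became 5.42 when TPM was rescaled over genes of at least 300 bases, since the short genes then leave the total. Leaving out 1 replicate at a time gave 1 to 2 genes over 2-fold apart. It gave 1.00 to 1.60 for sensor genes minus Ifit genes, -10.37 to -8.88 for Ifnb1 minus Tnf, 2.10 to 2.29 for Rsad2 minus Cmpk2, 0.72 to 0.86 for the 10 genes minus the 20 others, and 47.0% to 55.9% for the protein-coding share. Of the values computed under alternatives, 63 kept their direction, or moved by less than the spread between libraries or less than 1.5 times. These 63 include the contrasts and shares with 1 replicate left out. They also include sensor genes minus Ifit genes, which kept its direction but went from 1.39 to 2.28 in the second quantification. Alternatives for the order of levels and for the counts of genes highest in library 1 or lowest in library 2 were chosen after seeing the data, as was leaving out replicates for the protein-coding share. The contrasts cannot pass a threshold of 0.05 under any setting, so these directions are no evidence of stability. No paired analysis was possible because there is 1 group. Depth limits what can be said of Ifnb1, with 1 expected count in libraries 2 and 3.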
